A study of Mus musculus with 3 samples.

Results

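Fcgbp and 8 other genes for mucins and secreted defense proteins of mucosal epithelium were followed in cultured PyMT tumor cells with and without RANK ligand (RL). The 9 genes are Fcgbp, Pigr, Muc1, Muc4, Muc15, Muc20, Ltf, Agr2 and Slpi, out of 21743 genes and transcripts tested on the arrays. They were selected on a measured value, because Fcgbp was among the genes with the largest increase with RL, and the others were joined to it for their function. The increase of Fcgbp is therefore a description, and so are the RL values of the others, which come from the same comparison. All 9 genes have a probe on the array, 12 probes in total, and 8 of the 9 passed the filter on dim probes. The exception is Agr2.

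Cultures were made from 3 MMTV-PyMT tumors, in which the MMTV promoter drives the PyMT oncogene in the mammary epithelium, called tumors 1, 2 and 3 here. The labels call them primary tumor cultures and give no Rank genotype, whereas the methods describe such cultures as derived from tumor transplants with or without RANK. One culture of each tumor received RL for 24 h, starting 24 h after plating on matrigel, and another was left without RL, so that each condition is 1 culture per tumor. All cultures grew in DMEM-F12 with serum, EGF, cholera toxin and insulin, and the labels give neither strain nor age. The labels give RL at 1000 µg/mL, whereas the methods state a dose 1000 times lower. Both cultures of a tumor were hybridized to 1 array with opposite dyes, RL in Cy3 for tumors 1 and 3 and in Cy5 for tumor 2, and the direction of each ratio was taken from these dyes. The 3 arrays lay on 1 slide and were scanned together, and their number limits the precision of all values. Over all genes the RL ratios correlated between tumors 1 and 3 (Pearson's r = 0.452) but not with tumor 2, the array with exchanged dyes (r = −0.11 and −0.106). Array and tumor cannot be told apart, and for tumor 2 neither can be told apart from the exchanged dyes. Levels are normalized log2 intensities, compared between cultures only within a probe, and sums over marker lists follow their brightest probes. A channel had 54.6% to 56.2% of its probes well above background.

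Mucosal surfaces are covered by gels of secreted mucins, by mucins anchored in the cell membrane, and by proteins that bind or inhibit microbes and proteases. FCGBP is a large secreted protein that is crosslinked into mucus, and pIgR carries polymeric IgA through epithelial cells into secretions, milk included. The lactating mammary epithelium secretes lactoferrin and displays MUC1 on its apical surface and on milk fat globules, so parts of this program are at home in the tissue from which PyMT tumors arise.

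With RL, Fcgbp was higher in all 3 tumors. Its log2 level was 10.995, 7.36 and 8.20 in the control cultures of tumors 1, 2 and 3, and 12.16, 8.06 and 8.80 in the RL cultures. All 6 channels were well above background, although the control spot of tumor 2 read an intensity of 98.5 over a local background of 35, against 2676 over 71 in tumor 1, where the control was in the other dye. The RL and control ranges overlap across tumors, since the control of tumor 1 lay above the RL cultures of tumors 2 and 3, whereas within each tumor RL was the higher culture. The log2 ratio of RL over control was 1.16, 0.70 and 0.59, or 2.24-, 1.63- and 1.51-fold, with a mean of 0.82 ± 0.30 (SD, n = 3 tumors). By mean ratio Fcgbp held rank 4 of all genes tested, between Ubd (0.92) and Alox12e (0.91) just above and Plxnd1 (0.81) and Nfkbia (0.77) just below. A change in the number of cells of a type and a change in RNA per cell cannot be told apart in these bulk cultures.

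**Figure D1:**
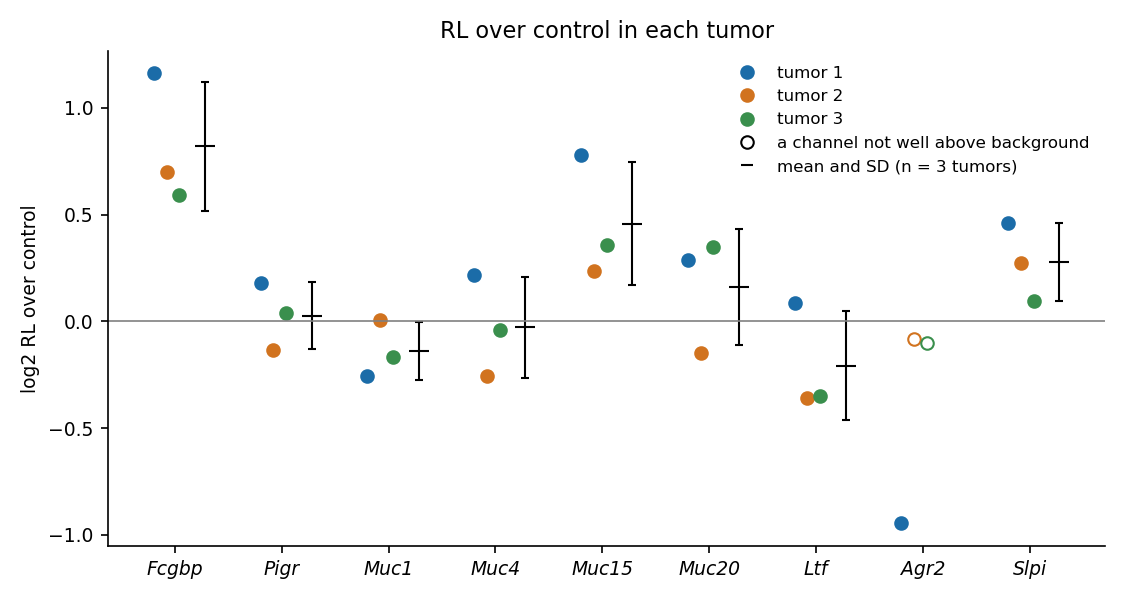
Log2 ratio of RL over control for the 9 genes, 1 point per tumor, with the mean and SD of 3 tumors where the gene passed the filter on dim probes. Open points have a channel that was not well above background. Fcgbp, Muc15 and Slpi lay above 0 in each tumor.

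The 5 genes with a symbol whose 3 ratios lay nearest to those of Fcgbp were Adamts8, a secreted metalloprotease, Nfkbie, an inhibitor of NF-κB, Spns3, a predicted transporter, Bace2, an aspartyl protease, and Traf1, an adaptor of TNF receptors. Their Euclidean distances over the 3 ratios were 0.234, 0.304, 0.307, 0.356 and 0.398. Their mean log2 ratios lay between 0.65 and 0.75. The likeness was measured on the RL ratio only. In level, Fcgbp was at 11.58, 7.71 and 8.50 in tumors 1, 2 and 3. Adamts8, Spns3 and Bace2 were also highest in tumor 1, while Traf1 was highest in tumor 2 and Nfkbie in tumor 3. Adamts8 had the order of Fcgbp, at 10.08, 9.80 and 9.86. Spns3 was at 9.74, 8.85 and 7.74, and Traf1 at 9.67, 9.82 and 9.66.

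Among the membrane mucins, Muc15 was the one with RL above control in all 3 tumors. Muc15 encodes a small membrane-bound mucin first described in the milk fat globule membrane. Its control levels were 8.69, 6.86 and 7.16 in tumors 1, 2 and 3, and its RL levels 9.47, 7.09 and 7.52. The log2 ratios were 0.78, 0.23 and 0.36, with a mean of 0.46 ± 0.29 (SD, n = 3), at rank 40 of all genes tested. Without tumor 1 the mean was 0.30. Muc15 is also on the study's own list of RL-induced genes of PyMT cells, which was drawn from the same cultures and is not independent of these values.

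The other membrane mucins showed no common direction with RL. Muc20, an epithelial mucin known to bind the MET receptor, had log2 ratios of 0.29, −0.15 and 0.35, from control levels of 12.81, 10.38 and 10.33. Muc4, a large mucin that associates with the receptor ERBB2, had ratios of 0.22, −0.26 and −0.04, from control levels of 11.64, 7.49 and 8.38. Both mucins were above 0 in tumor 1 and below 0 in tumor 2, where the dyes were exchanged. Muc1, the apical mucin of luminal cells, had ratios of −0.26, 0.01 and −0.17, from control levels of 10.07, 9.88 and 9.90. The means of Muc20, Muc4 and Muc1 were 0.16, −0.03 and −0.14, with SDs of 0.27, 0.24 and 0.14 over the tumors. A dimmer probe of Muc4 and a dimmer probe of Muc20 did not pass the filter, and both were well above background in tumor 1 with ratios of 0.02 and −0.07 there.

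Agr2, an endoplasmic reticulum disulfide isomerase needed for the folding of gel-forming mucins, could be read in both cultures of tumor 1 only. There its level was 9.05 in the control and 8.11 with RL, a log2 ratio of −0.94. In tumor 2 neither channel was well above background, and in tumor 3 only the control was, at a level of 6.20. RL was thus measured on 1 of 3 arrays and the control on 2 of 3, and the ratio in tumor 1 has no second tumor beside it. In the same culture pair Fcgbp had its largest ratio, in the opposite direction.

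Pigr, the polymeric immunoglobulin receptor, was bright in all cultures and close to even between conditions. Its control levels were 14.72, 14.71 and 14.88, and its RL levels 14.90, 14.58 and 14.92. The log2 ratios of 0.18, −0.14 and 0.04 averaged 0.03 ± 0.16 (SD, n = 3). A second, dimmer probe of Pigr, which was above background in all 6 channels, gave −0.04, −0.50 and −0.13, so the probes disagreed in sign in tumors 1 and 3 and most in size in tumor 2. Which of them follows the transcript was not tested.

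Of the secreted defense proteins, Slpi, an inhibitor of neutrophil elastase with antimicrobial activity, was at 15.01, 17.05 and 16.11 in the controls and at 15.47, 17.32 and 16.21 with RL. Its ratios were 0.46, 0.27 and 0.10, all above 0, with a mean of 0.28 ± 0.18 (SD, n = 3) and rank 190. Ltf, which encodes the iron-binding protein lactoferrin of milk and of neutrophil granules, was at 17.13, 14.50 and 15.39 in the controls and at 17.21, 14.14 and 15.05 with RL. Its ratios were 0.09, −0.36 and −0.35, with a mean of −0.21 ± 0.25 (SD, n = 3). Fcgbp, Muc15 and Slpi thus had 3 ratios of 1 sign, and tumor 1 gave the largest ratio for each of them. In tumor 1 Fcgbp and Muc15 were also brightest and Slpi dimmest, and the background correction used here compresses the ratios of dim probes. The part of brightness in the order of these ratios was not tested.

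Over the 8 genes tested, the median log2 ratio was 0.09, beside −0.001 over all genes. Of the 8, 3 had a ratio above 0 in each tumor, where 14.2% of all genes tested did, and 0 had one below 0 in each, where 13.3% did. By limma at an adjusted p of 0.05, 0 of the 8 were called in either direction, against 0.00460% of all genes called higher and 0.0230% called lower. Without adjustment, p was under 0.05 for 3 of the 8 upward and 0 downward, beside 784 and 774 of all 21743. A rank product put 1 of the 8 higher, Fcgbp, and 0 lower, beside 36 and 50 of all. Since Fcgbp was selected on this comparison, nothing is read from these counts. Leaving out tumor 2 put 5 of the 8 above 0 in both remaining tumors, where 30.3% of all genes were. Only 2 signs must match whenever a tumor is left out, and this share of all genes then ran from 22.4% to 30.3%. Tumors 1 and 3 share the dye of RL, Cy3, and the part of dye in their matching signs was not tested.

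**Figure D2:**
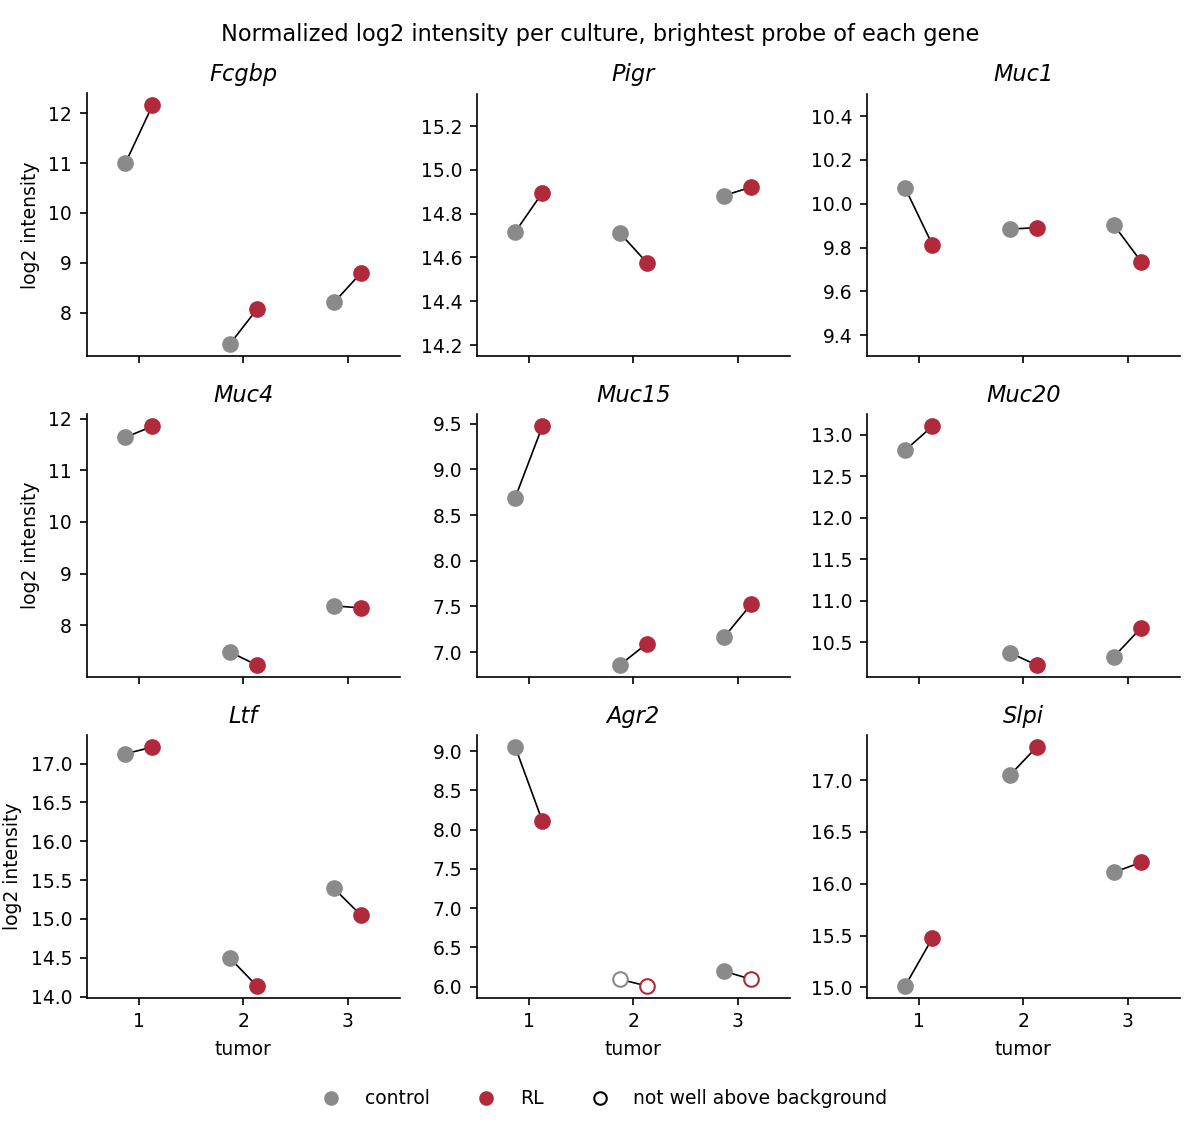
Normalized log2 intensity of the brightest probe of each gene in the control and RL cultures of tumors 1, 2 and 3, with a separate scale in each panel and lines joining the cultures of a tumor. Fcgbp, Muc4, Muc15, Muc20, Ltf and Agr2 were highest in both cultures of tumor 1, and Slpi was lowest there.

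For 7 of the 8 genes tested, all but Muc1, the range of level between tumors was larger than the RL ratio in any tumor. The same held for 69.9% of all genes, and these levels were not used to choose the genes. Taken as the mean of both cultures, Muc4 was at 11.74, 7.36 and 8.36 in tumors 1, 2 and 3, which puts tumor 1 at 20.8-fold the level of tumor 2 and 10.4-fold that of tumor 3. Fcgbp was at 11.58, 7.71 and 8.50, or 14.6- and 8.43-fold higher in tumor 1. The difference of Fcgbp between tumors 1 and 2, 3.86 on the log2 scale, compares with its mean RL ratio of 0.82. In each case both cultures of tumor 1 lay above all 4 cultures of the other tumors.

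Ltf, Muc20 and Muc15 were highest in tumor 1 too. By the mean of both cultures tumor 2 was lowest for all 3, but in the control cultures of Muc20 tumor 3 was, at 10.33 against 10.38. Ltf was at 17.17, 14.32 and 15.22, that is 7.22- and 3.87-fold higher in tumor 1. Muc20 was at 12.96, 10.30 and 10.50, with a 0.20 difference between tumors 3 and 2 that is smaller than its largest RL ratio. Muc15 was at 9.08, 6.97 and 7.34. Agr2, in the control cultures of tumors 1 and 3 where it could be read, differed by 2.85 on the log2 scale.

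Slpi ran the other way, at 15.24, 17.18 and 16.16, so that tumor 2 was 3.83-fold above tumor 1. Pigr and Muc1 hardly differed. The level of Pigr was 14.81, 14.64 and 14.90 by its brighter probe, and that of Muc1 was 9.94, 9.89 and 9.82. The dimmer probe of Pigr put tumor 1 at 2.22-fold the level of tumor 3, a difference that the brighter probe does not show.

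A difference of at least 1 on the log2 scale, a bound set after the values were seen, was used to count genes that stood out in a tumor. Tumor 1 was higher than both other tumors by that much for 5 of the 8 genes, Fcgbp, Muc4, Muc15, Muc20 and Ltf, and for 1.22% of all genes. Tumor 2 was for 1 of the 8, Slpi, and for 0.612% of all genes, and tumor 3 was for 0 of the 8 and 0.824% of all genes. The count for tumor 1 was again 5 with the control channels alone and with the RL channels alone. Slpi missed the bound in the control channels, at 17.05 in tumor 2 and 16.11 in tumor 3. With tumor 2 or tumor 3 left out, 1.93% to 2.76% of all genes met the bound for tumor 1. The range of level over the tumors was larger than that of 99.8% of all genes for Fcgbp, 99.9% for Muc4, 99.4% for Ltf, 99.2% for Muc20, 98.5% for Muc15 and 98.1% for Slpi, and larger than that of 47.3% for Pigr and 18.2% for Muc1. With 1 array per tumor, these differences have no replicate check beyond the pair of cultures on the array.

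**Figure D3:**
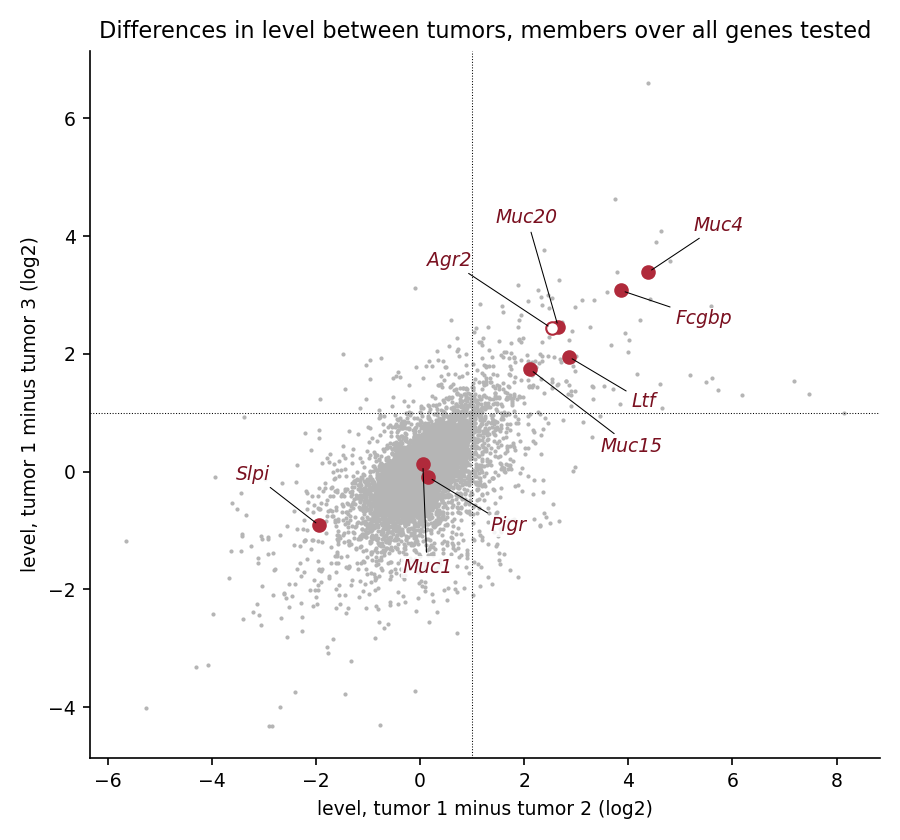
Difference in level between tumor 1 and tumor 2 against that between tumor 1 and tumor 3, both as log2 and as the mean of both cultures, for all genes tested (gray) and for the 9 genes (red, open for Agr2, which did not pass the filter). Dotted lines mark 1 on the log2 scale, and Fcgbp, Muc4, Muc15, Muc20 and Ltf lay beyond both. Agr2 did too, but could be read in both cultures of tumor 1 only.

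Muc4 and Muc20 are neighbors in the RefSeq annotation of GRCm38.p6, on opposite strands and with overlapping spans, so they are not independent by position. The promoters of 8 of the 9 genes, all but Muc15, matched the RefSeq table of that build, each with 250 bases before and 50 after the annotated start. Those of Fcgbp, Muc4, Muc20 and Ltf are shown because these genes were highest in tumor 1, with capitals for matches to any of 7 motifs on either strand. The motifs were κB (by name), Stat (TTCNNNGAA), ISRE (by name), E-box (CACGTG), C/EBP (TTGCNNAA), forkhead (TGTTTAC) and ETS (AGGAAG), and the search was chosen after the values were seen. The promoters lie at chr7:28070986-28071285 (plus strand) for Fcgbp, chr16:32735636-32735935 (plus strand) for Muc4, chr16:32797386-32797685 (minus strand) for Muc20 and chr9:111019042-111019341 (plus strand) for Ltf.
Fcgbp: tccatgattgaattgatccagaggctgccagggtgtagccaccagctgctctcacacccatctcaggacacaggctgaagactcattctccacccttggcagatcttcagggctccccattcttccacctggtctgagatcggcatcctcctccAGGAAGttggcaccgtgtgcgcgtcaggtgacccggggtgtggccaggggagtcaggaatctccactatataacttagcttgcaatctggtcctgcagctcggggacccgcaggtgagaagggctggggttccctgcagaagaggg
Muc4: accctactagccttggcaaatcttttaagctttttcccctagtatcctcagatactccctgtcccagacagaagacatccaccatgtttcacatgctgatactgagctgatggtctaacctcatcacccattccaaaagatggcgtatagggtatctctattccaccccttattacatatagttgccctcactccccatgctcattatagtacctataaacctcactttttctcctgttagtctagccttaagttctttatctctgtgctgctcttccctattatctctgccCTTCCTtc
Muc20: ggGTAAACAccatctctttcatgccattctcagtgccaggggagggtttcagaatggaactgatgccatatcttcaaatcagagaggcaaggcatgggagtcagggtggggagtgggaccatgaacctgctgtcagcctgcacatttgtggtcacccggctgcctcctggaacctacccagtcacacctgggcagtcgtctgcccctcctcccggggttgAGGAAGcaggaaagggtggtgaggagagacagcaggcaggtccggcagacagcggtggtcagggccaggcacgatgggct
Ltf: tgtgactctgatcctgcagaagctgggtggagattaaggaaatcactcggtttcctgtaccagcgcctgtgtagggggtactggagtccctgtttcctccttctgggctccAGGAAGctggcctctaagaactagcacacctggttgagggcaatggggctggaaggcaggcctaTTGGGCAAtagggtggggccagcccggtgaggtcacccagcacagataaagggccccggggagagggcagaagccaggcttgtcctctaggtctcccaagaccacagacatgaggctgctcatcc
The capitals are the ETS motif in all 4, with a forkhead match at the far end of Muc20 and a C/EBP match in Ltf. The ETS motif was in 5 of the 8 promoters, those 4 and Pigr, and in 35.4% of the 32851 promoters of the table. The κB motif was in 0 of the 8 and in 4.51% of all promoters, the ISRE in 0 and 3.44%, the Stat motif in 1 and 8.30%, the E-box in 2 and 7.15%, C/EBP in 2 and 10.8%, and forkhead in 1 and 3.65%. A match describes letters in this window and was not tested as a binding site.

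Markers of other cell types were read beside the level of these genes. Milk genes followed tumor 1 as well: of the 7 listed, 5 passed the filter, Csn1s2a and Glycam1 did not, and Csn2, Csn3, Csn1s1 and Lalba were at least 1 on the log2 scale higher in tumor 1 than in both other tumors. The summed intensity of the 5 in the control cultures was 158328, 16025 and 3731 in tumors 1, 2 and 3, and 68441, 8261 and 2083 with RL. This order differed from that of Fcgbp, which was lower in tumor 2 than in tumor 3. Csn2 had the order of Fcgbp, at 9.145, 7.10 and 7.17, and the other milk genes tested had the order of the sum. The brightest probe by the mean over tumors was that of Csn1s1, while in tumor 1 the probe of Lalba was brighter, at 16.10 against 14.91. This concerns the weight of each probe in the sum and does not compare the levels of the genes. With RL, by limma, Lalba (log2 ratio −1.50, adjusted p = 0.00757), Wap (−1.004, adjusted p = 0.0356) and Csn1s1 (−0.72, adjusted p = 0.0356) fell in all 3 tumors, while Fcgbp was higher in the same cultures. These calls held in 14, 13 and 11 of 17 alternative settings, and none of the 3 held with processed signals, with median centering or without pairing. The part of milk-producing cells in the levels of Fcgbp, Muc4, Muc15, Muc20 and Ltf was not tested.

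Ltf is also a neutrophil gene, so neutrophil markers were read beside it. Of 9 listed, 8 had a named probe and 5 passed the filter. Ngp and Cxcr2, which mark neutrophils, were above background in no channel, and Mpo in 1. The summed intensity of the 5 was 49450, 55695 and 45824 in the controls of tumors 1, 2 and 3 and 50112, 53901 and 43577 with RL, with Csf3r the brightest probe, and their median RL ratio was −0.10. The 5 differed in their order of tumors. Elane, at 8.83, 8.46 and 8.54, had the order of Ltf, S100a9 and Camp were lowest in tumor 1, S100a8 was at 12.92, 13.21 and 12.07, and Csf3r was at 15.32, 15.38 and 15.25. The part of neutrophils in the level of Ltf was not tested.

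Goblet cell markers were mostly below background. Of Muc2, Tff3, Clca1, Spdef, Zg16 and Retnlb, Spdef alone passed the filter, and Muc2, Tff3, Zg16 and Retnlb were well above background in none of the 6 channels. Spdef, an ETS factor of goblet cell differentiation, was at 9.23, 7.03 and 7.36 in tumors 1, 2 and 3, the order that Fcgbp had, and its RL ratios were −0.54, 0.10 and 0.06. The 8 luminal markers all passed, with a median difference of 0.29 between tumor 1 and the mean of the others and a median RL ratio of −0.02. Their summed intensity, with Krt18 the brightest, was 364378, 240743 and 413776 in the controls and 306243, 268219 and 321221 with RL. The basal markers, of which 6 of 7 passed, had a median difference of −1.08 and a median RL ratio of −0.10, with sums of 44073, 79703 and 128935 in the controls and 49290, 73334 and 105434 with RL, and Krt14 the brightest. The part of the luminal and basal cells in the difference between tumors was not tested.

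Of the remaining markers, those of fibroblasts (7 of 7 passed) had median RL ratios of −0.29, 0.16 and −0.05 in tumors 1, 2 and 3, and 6 of the 7 were highest in tumor 3, Col1a1, Col1a2, Col3a1 and Pdgfrb by at least 1 on the log2 scale, while Pdgfra was highest in tumor 2. Macrophage markers (7 of 7 passed) had medians of −0.30, 0.01 and −0.02. In tumor 1, where the ratios of Fcgbp, Muc15 and Slpi were largest, all 7 fibroblast and all 7 macrophage markers were below 0, and their part in those ratios was not tested. T cell markers (2 of 5) had a median of −0.02, endothelial markers (2 of 4) −0.004, and the leukocyte gene Ptprc a ratio of 0.05. Of the B and plasma cell markers, 0 of the 6 on the array passed, so Pigr was measured in cultures where Jchain, the chain that joins IgA into the polymers that pIgR carries, was well above background in no channel.

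**Figure D4:**
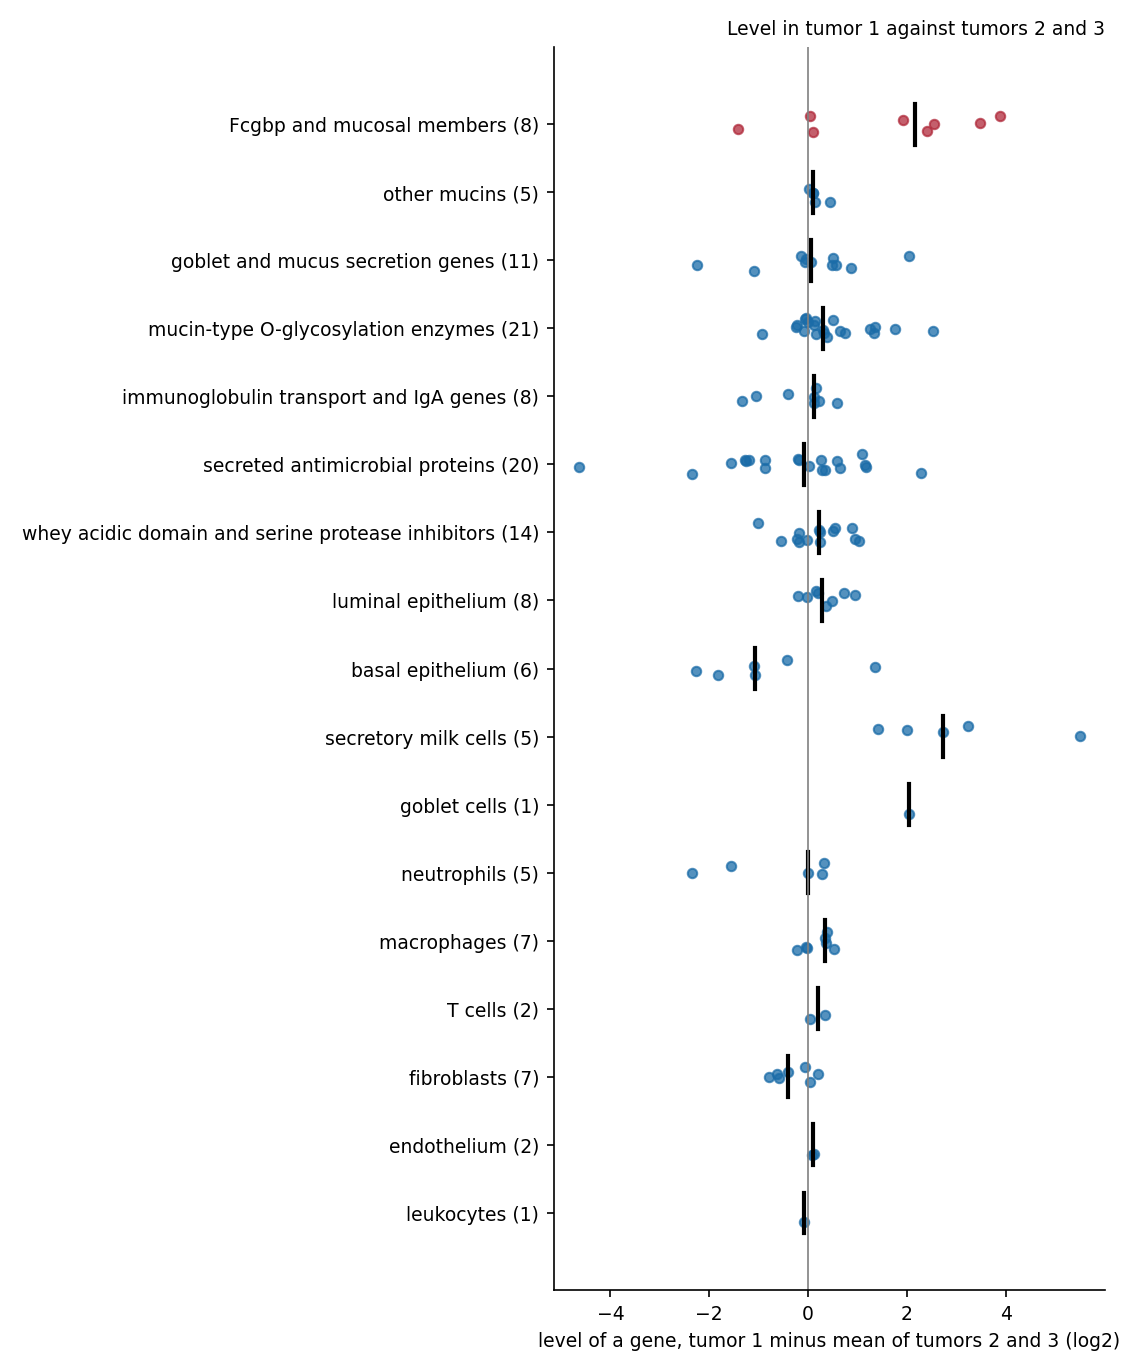
Level in tumor 1 minus the mean of tumors 2 and 3 (log2) for Fcgbp and the mucosal genes tested, for 6 lists of mucosal genes and for cell type markers, 1 point per gene. Black bars are medians and the number of genes tested is in brackets. The medians of the 8 genes (2.16) and of the milk genes (2.72) lay far right of the gray line at the median of all genes. So did Spdef (2.04), the 1 goblet cell marker tested.

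RL ratios were read in 7 gene lists, 6 of mucus and mucosal defense genes, with 79 genes tested, and 1 of 5 reference genes of the RL response. By limma, 0 of these 84 were called higher or lower at an adjusted p of 0.05. Among the 79 mucosal genes, unadjusted p was under 0.05 for 4 upward and 10 downward, 784 and 774 over all 21743 genes, and a rank product called 4. Of the 79, 7 (8.86%) lay above 0 in all 3 tumors and 17 (21.5%) below, beside 14.2% and 13.3% of all genes.

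Of 18 other mucins, 9 had a named probe and 5 passed, with a median ratio of 0.02. Muc2 was well above background in no channel, while Muc5ac and Muc5b, the gel-forming mucins of stomach and airway, were so in all 6, with mean ratios of −0.06 and −0.08. Both were dim, at 6.39, 6.29 and 6.29 for Muc5ac and 6.34, 6.28 and 6.35 for Muc5b in tumors 1, 2 and 3. Muc2 was at 5.93, 5.82 and 5.88, and the ratios of such dim probes are compressed. Muc13, a membrane mucin that was dim too, at 6.64, 6.47 and 6.54, had a mean ratio of 0.08, and Cd164, a sialomucin, 0.07. None of Muc5ac, Muc5b, Muc13 and Cd164 had an adjusted p below 0.885 from limma. With a tumor left out, the means ran from −0.087 to −0.033 for Muc5ac, −0.13 to −0.024 for Muc5b and 0.0014 to 0.16 for Muc13. Processed signals gave −0.44 for Muc5b and 0.20 for Muc13.

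Of the goblet and mucus secretion genes, 11 of 25 passed, with a median ratio of 0.01. Foxa2, a forkhead factor of secretory epithelium, had ratios of 0.73, 0.41 and 0.55, with a mean of 0.56 (SE 0.08, adjusted p = 0.0764 from limma), and was higher in 3 of 3 tumors. It passed the threshold with a dye term in the model (adjusted p = 3.39e-05), with trended and robust moderation (adjusted p = 0.00717) and without tumor 2 (adjusted p = 7.83e-06), but in no other setting with limma, and a rank product called it (pfp, the estimated share of false calls, 0.00406). The dye term and the omission of tumor 2 each passed 12 of the 29 named list genes, the 5 reference genes among them. The others were Foxa2, Galnt18, St6galnac6, St6galnac4, Saa1, Saa2 and Wfdc3 in both settings. Without tumor 2 both remaining arrays had RL in Cy3, so that setting cannot separate RL from dye. Over all alternatives the ratio of Foxa2 lay between 0.46 and 0.70. Its level was 7.605, 10.85 and 8.86 in tumors 1, 2 and 3, highest in tumor 2, as Slpi was, and lowest in tumor 1, where Fcgbp was highest. Bpifb1, a secreted airway protein, had ratios of 0.70, 0.33 and −0.04, with a mean of 0.33 that was 0.15 without tumor 1. Rab27a, a GTPase of granule release, and Creb3l1, a transcription factor of secretory cells, had −0.14 and −0.18, the former with ratios of −0.075, −0.375 and 0.044.

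The enzymes that build mucin-type O-glycans, of which 21 of 30 passed, had a median ratio of 0.01. Galnt18, of the family that starts these chains, had ratios of 1.20, 0.37 and −0.04 (mean 0.51, SE 0.19, and 0.16 without tumor 1). Galnt12, of the same family, had a mean of 0.16. St6galnac6 and St6galnac4, which add sialic acid, had means of −0.37 and −0.40 and were lower in 3 of 3 tumors, with adjusted p of 0.4 and 0.311 from limma, and without tumor 1 the means were −0.23 and −0.28. Both were at least 1 on the log2 scale higher in tumor 1 than in each other tumor, as were Galnt18, St3gal1 and St6galnac2, which makes 5 of the 21 enzymes, beside 1.22% of all genes. In the other lists this held for 0 of 5 mucins, 1 of 11 goblet genes, 0 of 8 immunoglobulin transport genes, 2 of 20 antimicrobial genes (Lpo and Pglyrp1), 0 of 14 protease inhibitors and 0 of 5 reference genes.

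Of the genes for immunoglobulin transport and IgA, 8 of the 13 on the array passed, with a median of −0.08. Trim21, a cytosolic antibody receptor, and B2m, the light chain of MHC class I and of the neonatal Fc receptor, had means of 0.15 and 0.14. Fcgrt, the heavy chain of that receptor, and Fcmr, the IgM receptor, had −0.17 and −0.17, the former with a ratio of −0.41 in tumor 1 and a mean of −0.04 without it. In tumors 2 and 3 the ratios of all 4 lay between −0.26 and 0.26. With a tumor left out, the mean ran from 0.086 to 0.18 for Trim21 and from 0.050 to 0.19 for B2m.

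Of 36 secreted antimicrobial proteins on the array, 20 passed, with a median of −0.09 that was −0.01 without tumor 1. Of the 20, 0 lay above 0 in all 3 tumors and 6 below, as did 3 of the 8 immunoglobulin transport genes. Saa1 and Saa2, acute phase proteins, had means of −0.54 (adjusted p = 0.321 from limma) and −0.56 (adjusted p = 0.404), with all 3 ratios below 0. A rank product called both lower (pfp 0.0248 and 0.0203), and without tumor 1 the means were −0.32 and −0.28. Pglyrp1, which binds bacterial peptidoglycan, had ratios of 0.82, 0.48 and −0.24, and Sftpd, a collectin, had 0.51, 0.15 and −0.15. Lcn2, a siderophore-binding protein that like Ltf withholds iron from bacteria, was chosen after its values were seen and had ratios of −0.82, 0.24 and −0.81, with the opposite sign in the tumor with exchanged dyes. A rank product called Lcn2 lower as well (pfp 0.0357).

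The protease inhibitors related to Slpi gave a median ratio of −0.06 over 14 of 22 genes that passed. Wfdc2, a whey acidic domain protein as Slpi is, had ratios of 0.32, 0.26 and 0.12 (mean 0.23, adjusted p = 0.526 from limma), above 0 in 3 of 3 tumors. Wfdc3, of the same family, had −0.60, −0.17 and −0.28 (mean −0.35, adjusted p = 0.4), with a mean of −0.22 without tumor 1. Cst6, a cystatin, and Spint2, an inhibitor of membrane serine proteases, had means of 0.04 and −0.17. With a tumor left out, these ran from 0.0052 to 0.096 for Cst6 and from −0.25 to −0.071 for Spint2.

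The reference genes of the RL response, targets and parts of the NF-κB pathway, lay above 0 in all 3 tumors, 5 of 5. Nfkbia, Nfkb2, Relb, Icam1 and Birc3 had mean ratios of 0.77, 0.62, 0.55, 0.49 and 0.44, and adjusted p of 0.2 or more from limma. A rank product called Nfkbia and Nfkb2 (pfp 0.00222 and 0.0298). Without tumor 1 the means of Nfkbia, Nfkb2 and Relb were 0.42, 0.31 and 0.25. Between tumors, the range of level of the 5 genes ran from 0.03 for Birc3 to 0.82 for Icam1. The median range over all genes was 0.27, and that of Fcgbp was 3.86. The mean ratio of Fcgbp was close to that of Nfkbia, but Fcgbp was selected for a large increase, so nothing is read from this. All 5 reference genes had their largest ratio in tumor 1, as Fcgbp, Muc15 and Slpi did.

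**Figure D5:**
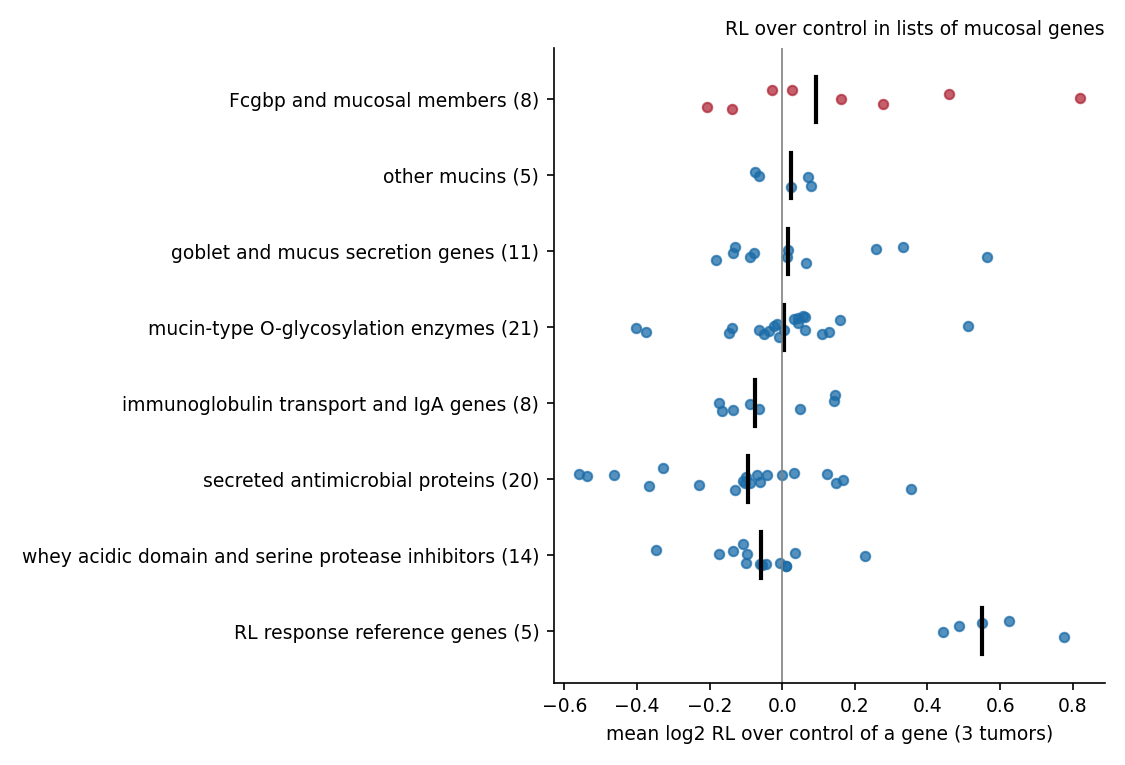
Mean log2 ratio of RL over control for Fcgbp and the mucosal genes tested and for the 7 lists, 1 point per gene, with medians as black bars and the number of genes tested in brackets. The list medians lay between −0.09 and 0.02 apart from the NF-κB reference genes (0.55), and the gray line is the median of all genes.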

How the data were processed

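RNA of 3 pairs of cultures, RL and control, was measured on 3 two-color Agilent mouse arrays. The authors used Agilent Feature Extraction 10.7.3.1 and deposited median intensities of spot and local background, and processed intensities. Processed intensities give the deposited log10 ratios as Cy5 divided by Cy3. The methods describe values as log2 of condition over control. Set against the scanner values, the table of log2 ratios deposited by the authors instead ran as Cy5 over Cy3 on each array, which is control over RL in tumors 1 and 3 (Pearson's r of 0.881, 0.874 and 0.880 across spots, slopes of 1.40, 1.59 and 1.50, medians of 0.0024, −0.0011 and 0.0007).

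Median intensities were corrected with normexp (offset 50), which compresses the ratios of dim probes, normalized by intensity-dependent loess, by loess on row and column (span 0.1) and by Aquantile, in R 4.3.3 with limma 3.58.1. Spots marked as outliers were left out. Probes were named by unversioned accession through the RefSeq table of GRCm38.p6 (28026 of 55681 probes matched). Probes well above background in all 3 RL or all 3 control channels were kept, and the brightest stood for a gene. Ratios went through lmFit and eBayes, with 2 residual and 6.90 prior degrees of freedom and Benjamini-Hochberg adjustment over 21743 genes and transcripts. The ratio pairs the cultures by tumor, as the labels do.

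The members and lists were chosen with earlier results of these data known. Named genes were the members, the 2 largest and 2 smallest mean ratios of each list, all reference genes, the 5 genes nearest to Fcgbp, its neighbors in rank, markers, and Lcn2, picked after its values were seen. Alternatives covered background, signals, normalization, filter, outliers, probes, dye, moderation, pairing, the authors' table, each tumor left out and a rank product with 1000 permutations. Programs were tested on simulated data.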

Additional observations from a re-analysis of the deposited data

How the results depend on the processing

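The counts of genes called were the least stable results. Genes called higher, 1 in the analysis reported, were 6 without background correction, 6 at offset 10, 0 with processed signals, 0 with median centering, 0 with no filter, 0 with a strict filter, 125 with a dye term, 14 with trended and robust moderation, 2 with the authors' table and 36 by rank product, and 0 to 591 with a tumor left out. Genes called lower, 5 in the analysis reported, were 12, 11, 0, 0 and 3 in the first 5 of these settings, 171 with a dye term, 30 with moderation and 50 by rank product, and 2 to 887 with a tumor left out. Without the pairing of cultures by tumor (no replicate block), 0 were called higher and 0 lower. List genes called, 0, became 15 with a dye term, 2 with moderation, 6 by rank product and 0 to 19 with a tumor left out. The 591, 887 and 19 came without tumor 2, where RL was in Cy3 on both remaining arrays and cannot be separated from dye. The median ratio of the members, 0.09, was −0.12 with median centering, where that of all genes was −0.11, and 0.02 to 0.19 with a tumor left out, and members above 0 in all tumors, 3, were 3 to 5 with a tumor left out, beside 22.4% to 30.3% of all genes, 2 with processed signals and 2 with median centering, beside 14.9% and 2.54% of all genes. Leaving out a tumor gave −0.21 to −0.079 for Muc1 and −0.35 to −0.13 for Ltf, and Ltf was −0.089 with processed signals. Median centering gave −0.19 for Pigr, −0.043 for Muc20, 0.083 for Slpi, −0.27 for Muc1 and −0.47 for Ltf, and Muc4 was 0.088 without tumor 2. Median centering also reversed Cd164 (−0.14), Galnt12 (−0.016), Trim21 (−0.0015), B2m (−0.081), Sftpd (−0.033) and Cst6 (−0.16). A dye term reversed Cd164 (−0.021), and leaving out a tumor gave −0.048 to 0.26 for Cd164 and −0.00017 to 0.33 for Sftpd. With a tumor left out, list medians ran from −0.073 to 0.14 (other mucins), −0.015 to 0.019 (goblet), 0.0063 to 0.021 (glycosylation), −0.085 to −0.038 (immunoglobulin transport), −0.12 to −0.011 (antimicrobial), −0.069 to −0.018 (protease inhibitors) and 0.33 to 0.72 (reference genes). Median centering took the first 6 to −0.086, −0.082, −0.12, −0.21, −0.20 and −0.21. The share of genes highest in tumor 1, 1.22%, was 0.797% with no filter and 1.95% with processed signals. The ratio of Fcgbp lay between 0.61 and 0.97. Signal over background limits the dim probes, that of Agr2 among them.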
